A study of Mus musculus with 20 samples.

Results

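The circadian clock genes described here are 10 transcripts: Arntl, Clock, Per1, Per2, Cry1, Cry2, Nr1d1, Nr1d2, Dbp and Tef. They were chosen by name, as parts of the molecular clock and its first-line outputs, among the 43422 Ensembl genes whose expression was listed for each mouse, and all 10 were found and passed the filter on low values in every comparison. RNA was taken from the abdominal aorta of 20 mice, 5 in each of 4 groups. The WT saline and Plod1-/- saline mice carried subcutaneous osmotic pumps with saline for 14 days. The WT Ang II and Plod1-/- Ang II mice carried the same pumps with angiotensin II (Ang II), a peptide that raises blood pressure, at 1000 ng/kg per minute. The labels give all mice as C57BL/6 and 6 months old. By the methods of the study they were C57Bl/6NCrl, younger than that when the pumps were implanted, male, and kept under a cycle of equal light and dark phases. The Plod1-/- mice lack lysyl hydroxylase 1, an enzyme that modifies collagen, in the whole body, so aortic cells and every other cell type carried the deletion. The question asked of the clock genes was whether they stood at the same point of the daily cycle in the 4 groups. The hour at which each aorta was collected is not given in the sources used here, so a group that was collected at another hour and a group whose clock genes differed at the same hour cannot be told apart.

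The clock is a loop of transcription factors that runs in nearly every cell, the smooth muscle cells of arteries included. The proteins of Arntl and Clock switch on the Per, Cry, Nr1d, Dbp and Tef genes through E-boxes, PER and CRY proteins then shut the pair down, and NR1D1 and NR1D2 repress Arntl itself. In mouse tissues under a light-dark cycle, Arntl transcripts are therefore highest around the end of the night, those of Nr1d1 and Dbp in the light phase, those of Per1 and Per2 near its end, and those of Cry1 later in the night. A single collection shows each mouse at 1 point of this cycle.

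Expression was given as FPKM, a fragment count scaled by transcript length and library size, so levels are per length. Whether FPKM ranks different genes correctly was not tested, so levels are best compared between mice for the same gene. Related genes could lie far apart. In WT saline mice the smooth muscle genes Tagln and Acta2 had means of 9.35 and 14043 FPKM. The glucocorticoid targets Mt2 and Mt1 had means of 0.101 and 1110 FPKM there. Gene positions are those of GENCODE vM21 on the GRCm38 build. The sums of FPKM ran from 344207 to 437790 per library, the relative depth read from the spacing of the lowest values ran from 0.903 to 1.09, and the absolute depth is unknown. Plod1 was at 22.8 FPKM or above in every WT mouse and at 0.0415 or below in every Plod1-/- mouse. Xist, a transcript of female cells, stood at 15.1 FPKM in Plod1-/- saline replicate 5 and 7.93 FPKM in Plod1-/- Ang II replicate 1, against male mice in both, while the 18 remaining libraries reached 0.0328 FPKM at most. Comparisons used limma on values of log2(FPKM + 1), which understates changes of transcripts with few FPKM such as Arntl. A gene passed when its Benjamini-Hochberg adjusted p-value over all genes tested was below 0.05, two-sided, and was counted as a differentially expressed gene (DEG) when its log2 fold change was also above 1 in size.

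The clock genes did not stand at 1 common level across the groups, and the Plod1-/- Ang II mice stood apart from all others for Nr1d1 and Dbp. In WT mice, 4 of 10 were lower under Ang II than under saline (Per2, Cry1, Cry2 and Nr1d2), and Per2 was the only DEG. In Plod1-/- mice, 6 of 10 were lower under Ang II (Per2, Cry2, Nr1d1, Nr1d2, Dbp and Tef), and all of these but Cry2 were DEGs. Between the Ang II groups, Nr1d1, Dbp and Tef were lower and Arntl was higher in Plod1-/- mice. Clock and Per1 passed in no comparison.

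These counts have to be read against an aorta in which a large share of all genes moved. Under Ang II, 38.0% of 11994 genes passed in WT mice (16.5% higher and 21.5% lower), and 43.8% of 12333 genes passed in Plod1-/- mice (23.8% higher and 20.1% lower). The 4 of 10 clock genes that passed in WT mice, all lower, stood beside 38.0% of genes in either direction and 21.5% lower. The 6 of 10 in Plod1-/- mice, all lower, stood beside 43.8% in either direction and 20.1% lower. DEGs with lower expression made up 2.28% of genes in WT mice and 5.51% in Plod1-/- mice, against 1 and 5 of the 10 clock genes. The median log2 fold change of the clock genes was -0.46 in WT mice, beside -0.14 over all genes tested, and -1.04 in Plod1-/- mice, beside 0.05. No clock gene was higher under Ang II by limma in either genotype, and at an unadjusted p-value below 0.05 that count was 0 in WT mice and 1, Arntl, in Plod1-/- mice, while exact permutation tests gave 0 in both.

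In Plod1-/- against WT mice under Ang II, 31.2% of 12356 genes passed, 20.8% higher and 10.4% lower in Plod1-/- mice, against 1 higher and 3 lower clock genes. Their median log2 fold change was -0.30, beside 0.12 over all genes. At an unadjusted limma p-value below 0.05, 2 clock genes were higher and 5 lower there. By an exact permutation p-value below 0.05, 2 were higher (Arntl and Cry1) and 4 lower (Nr1d1, Nr1d2, Dbp and Tef). Under saline, 6.55% of 11999 genes passed between the genotypes and no clock gene did by limma, while 2 had an unadjusted p-value below 0.05, Cry1 and Dbp, and 1, Dbp, had an exact permutation p-value below 0.05. The median log2 fold change under saline was -0.01 for the clock genes and -0.01 for all genes. The interaction, which tests whether the response to Ang II differed between genotypes, passed for 37.8% of 13263 genes and for 3 clock genes, Cry1, Nr1d1 and Dbp. A test of any difference among the 4 groups passed for 7 of 10 clock genes and for 68.3% of all genes. Quantile normalization moved the median of all genes from 0.05 to -0.06 in the Plod1-/- response, from 0.12 to -0.03 between the Ang II groups and from 0.12 to -0.01 in the interaction. It changed the split of passing genes from 2934 higher and 2474 lower to 2435 and 3347, from 2569 and 1280 to 2013 and 2067, and from 3150 and 1867 to 2517 and 2594, in that order, while Dbp stood at -3.27, -2.36 and -3.18 on the log2 scale.

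**Figure D1:**
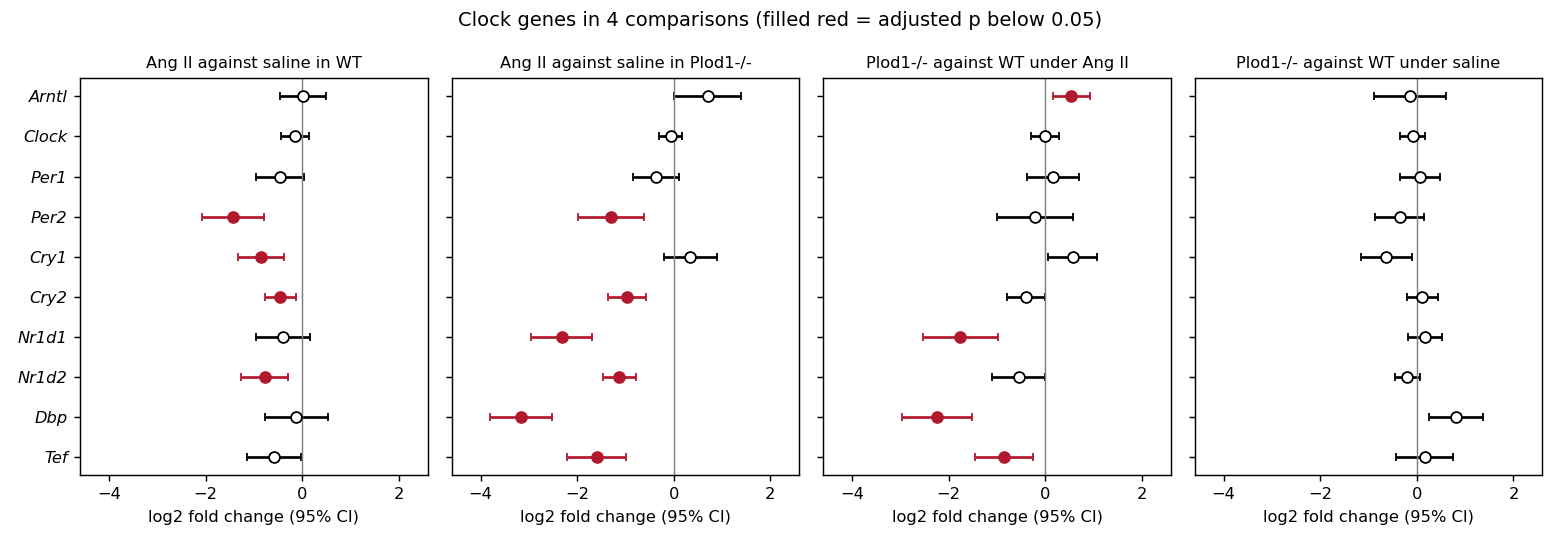
Log2 fold change of each clock gene with its 95% confidence interval in the 4 comparisons of 10 mice (x axis, log2 scale of FPKM + 1), with filled red points where the adjusted p-value was below 0.05. Dbp has the lowest value in the Plod1-/- response, at -3.16, and none of the 10 points is filled between the genotypes under saline.

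Arntl, which encodes BMAL1, the partner without which the loop stops, was low everywhere (ENSMUSG00000055116, chr7:113207465-113314126, plus strand). Its FPKM was 1.75, 2.28, 0.466, 0.984 and 1.16 in WT saline mice, 1.94, 0.839, 1.73, 0.839 and 1.19 in WT Ang II mice, 0.476, 0.385, 0.466, 3.68 and 1.43 in Plod1-/- saline mice, and 1.57, 2.38, 2.12, 2.56 and 3.05 in Plod1-/- Ang II mice. The Plod1-/- Ang II mice were high and close together, whereas the Plod1-/- saline mice held the lowest value of the study, in replicate 2, and the highest, in replicate 4. Every pair of groups overlapped. Arntl passed between the Ang II groups, with a log2 fold change of 0.54 (SE 0.17, adjusted p = 0.036). That call was lost in 7 of 10 fits that left out 1 mouse (WT Ang II replicates 2, 4 and 5 and Plod1-/- Ang II replicates 2, 3, 4 and 5), with log2 fold changes of 0.47 to 0.64 and adjusted p-values up to 0.0889, and with quantile normalization (0.36, adjusted p = 0.0582). The response in Plod1-/- mice was 0.70 (SE 0.31, adjusted p = 0.0927), and without Plod1-/- saline replicate 4 it was 1.01 (adjusted p = 0.00346). The interaction was 0.69 (adjusted p = 0.182), or 0.99 (adjusted p = 0.0207) without that mouse. In WT mice the response was 0.01, with a 95% confidence interval from -0.47 to 0.49.

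Among the motifs searched in the RefSeq promoter windows (GRCm38.p6, 250 bases before to 50 after each start), Arntl alone of the 9 clock genes with a window held an ROR element (RORE, searched on either strand as TAGGTCA or TGGGTCA with an A 3 bases upstream), the kind of site that NR1D1 and NR1D2 occupy as repressors and ROR proteins as activators. Of all 32851 windows, 1.6% held one. Nr1d1 and Nr1d2 both fell in Plod1-/- mice under Ang II, while in WT mice Nr1d2 fell (-0.78 on the log2 scale) with Arntl at 0.01. A part of this site in the Arntl levels was not tested. The match is shown in capitals with its flanks, and its first base lies 27 bases after an annotated start, at chr7:113207528-113207557 on the plus strand.
Arntl RORE: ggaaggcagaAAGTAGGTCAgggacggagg

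Clock, the partner of ARNTL whose own transcript cycles weakly in many tissues, was the steadiest clock gene (ENSMUSG00000029238, chr5:76209868-76304792, minus strand). It ran from 2.15 to 3.75 FPKM over the 20 mice, and its within-group SD was 0.18 on the log2 scale, with 24.8% of 13263 genes at a smaller SD. The group medians were 3.2 and 2.37 FPKM in WT mice under saline and Ang II and 2.45 and 2.46 FPKM in Plod1-/- mice under saline and Ang II. Its log2 fold changes were -0.14 in the WT response (95% confidence interval from -0.44 to 0.15), -0.06 in the Plod1-/- response (from -0.30 to 0.18), -0.00 between the Ang II groups (from -0.29 to 0.28) and -0.09 under saline (from -0.35 to 0.17).

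Per2, a repressor whose transcript is among the most strongly cycling in the mouse, was lower under Ang II in both genotypes (ENSMUSG00000055866, chr1:91415982-91459324, minus strand). Its FPKM was 18, 18, 33.1, 26.9 and 33.4 in WT saline mice and 7.89, 6.65, 8.82, 18.5 and 5.23 in WT Ang II mice. In Plod1-/- mice it was 28.4, 19.2, 19, 12.8 and 20 under saline and 10.2, 14.4, 3.85, 5.18 and 6.49 under Ang II. In each genotype, 1 mouse made the groups overlap: WT Ang II replicate 4 at 18.5 and Plod1-/- Ang II replicate 2 at 14.4 FPKM. The log2 fold change was -1.44 (SE 0.29, adjusted p = 0.00531) in WT mice and -1.29 (SE 0.31, adjusted p = 0.00653) in Plod1-/- mice. The interaction was 0.14, with a 95% confidence interval from -0.80 to 1.09 (adjusted p = 0.825). Between the Ang II groups Per2 differed by -0.21, with a 95% confidence interval from -1.01 to 0.58.

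Per1, the paralog that also answers acute signals through CREB, did not pass (ENSMUSG00000020893, chr11:69095217-69109960, plus strand). It ran from 25.6 to 53.9 FPKM in WT saline mice, from 16.4 to 30.3 in WT Ang II mice, from 31.5 to 42.3 in Plod1-/- saline mice and from 18.1 to 46.1 in Plod1-/- Ang II mice. The log2 fold change under Ang II was -0.46 (95% confidence interval from -0.95 to 0.04) in WT mice and -0.37 (from -0.84 to 0.10) in Plod1-/- mice, where leaving out Plod1-/- Ang II replicate 2 gave -0.54 (adjusted p = 0.0321). Its upstream window is shown because it carries an E-box, CACGTG, the site bound by the ARNTL-CLOCK pair, in capitals 166 bases before the start (chr11:69098699-69098948, plus strand). The window lies inside the longer GENCODE gene model, and the upstream bases of another Per1 start, at chr11:69099902-69100151, hold none of the motifs.
Per1 upstream: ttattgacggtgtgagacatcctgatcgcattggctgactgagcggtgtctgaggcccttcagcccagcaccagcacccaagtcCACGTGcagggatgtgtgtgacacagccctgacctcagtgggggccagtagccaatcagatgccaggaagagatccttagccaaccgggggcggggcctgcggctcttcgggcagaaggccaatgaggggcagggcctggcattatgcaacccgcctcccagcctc

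Cry1 and Cry2 encode the cryptochromes, which block the activating pair, and they parted in the Plod1-/- mice. Cry1 (ENSMUSG00000020038, chr10:85131700-85185064, minus strand) was at 2.19, 3.94, 5.5, 4.94 and 6.72 FPKM in WT saline mice and at 2.92, 1.57, 2, 1.81 and 1.83 in WT Ang II mice. It was at 3.21, 2.96, 3.31, 1.86 and 1.54 FPKM in Plod1-/- saline mice and at 2.12, 7.09, 3.22, 3.29 and 2.76 in Plod1-/- Ang II mice. WT mice were lower under Ang II apart from saline replicate 1, which lay among the Ang II mice, and the Plod1-/- groups overlapped in part, with Ang II replicate 2 above every saline mouse and saline replicates 4 and 5 below every Ang II mouse. On the log2 scale the difference was -0.86 (SE 0.22, adjusted p = 0.0125) in WT mice and 0.34 (SE 0.25, adjusted p = 0.296) in Plod1-/- mice, and the responses differed by 1.20 (SE 0.35, adjusted p = 0.0118). Under saline Cry1 was at -0.63 in Plod1-/- against WT mice (adjusted p = 0.116), and without WT saline replicate 1 at -0.83 (adjusted p = 0.0394). Under Ang II it was at 0.57 (limma adjusted p = 0.0855, exact permutation p = 0.0317), and without Plod1-/- Ang II replicate 1 at 0.69 (limma adjusted p = 0.0344).

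Cry2 (ENSMUSG00000068742, chr2:92403646-92434043, minus strand) fell in both genotypes. Its FPKM was 8.77, 9.47, 14.1, 14.2 and 13.3 in WT saline mice and 7.7, 7.36, 8.76, 9.46 and 8.48 in WT Ang II mice. In Plod1-/- mice it was 15.3, 12.7, 13, 10.9 and 12.2 under saline and 7.58, 8.78, 3.89, 5.15 and 5.86 under Ang II, with every Ang II mouse below every saline mouse. The log2 fold change was -0.96 (SE 0.18, adjusted p = 0.00163) in Plod1-/- mice and -0.45 (SE 0.15, adjusted p = 0.0332) in WT mice, with an interaction of -0.51 (95% confidence interval from -1.01 to -0.02, adjusted p = 0.0918). The WT call was lost in 7 of 10 fits without 1 mouse (WT saline replicates 3, 4 and 5 and WT Ang II replicates 1, 2, 3 and 5), where the adjusted p-value reached 0.0807. The interaction passed without Plod1-/- Ang II replicate 2 (-0.63, adjusted p = 0.031), as did the difference between the Ang II groups (-0.52, adjusted p = 0.0401, against -0.40, adjusted p = 0.11, with it). The upstream window of Cry1 carries an E-box 60 bases before the start (chr10:85185055-85185304, minus strand) and is shown beside that of Per1, since both hold the letters of the activator site and neither passed in the Plod1-/- response. No motif searched was found in the window of Cry2.
Cry1 upstream: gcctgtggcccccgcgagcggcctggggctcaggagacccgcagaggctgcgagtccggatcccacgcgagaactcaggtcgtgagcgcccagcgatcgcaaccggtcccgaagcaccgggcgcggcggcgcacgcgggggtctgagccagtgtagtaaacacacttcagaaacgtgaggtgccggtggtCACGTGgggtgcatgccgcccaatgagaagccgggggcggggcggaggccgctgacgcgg

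Nr1d1 encodes REV-ERBα, a nuclear receptor that represses Arntl, and it had the highest group mean FPKM of the clock genes (ENSMUSG00000020889, chr11:98767932-98775333, minus strand). Its FPKM was 129, 218, 125, 130 and 130 in WT saline mice, 66.6, 88.4, 126, 189 and 106 in WT Ang II mice, and 194, 159, 139, 161 and 154 in Plod1-/- saline mice. In Plod1-/- Ang II mice it was 63.8, 35.2, 17.9, 22.2 and 33.5, below each of the other 15 mice. The mean of that group was 4.66-fold below that of Plod1-/- saline mice and 3.34-fold below that of WT Ang II mice. On the log2 scale the difference was -2.32 (SE 0.28, adjusted p = 0.000173) within the Plod1-/- genotype and -1.76 (SE 0.35, adjusted p = 0.00614) between the Ang II groups. Both comparisons share the Plod1-/- Ang II mice. In WT mice the response was -0.40 (95% confidence interval from -0.96 to 0.17, adjusted p = 0.233), or -0.60 (adjusted p = 0.0356) without WT Ang II replicate 4, and the responses of the genotypes differed by -1.92 (SE 0.40, adjusted p = 0.00165). Nr1d1 shares 1075 bases with Thra, the thyroid hormone receptor gene on the opposite strand, which ran from 20.4 to 64.3 FPKM, and the libraries did not keep the strand.

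Nr1d2, its paralog, fell in both genotypes (ENSMUSG00000021775, chr14:18204054-18239127, minus strand). Its FPKM was 18.9, 19.6, 23.1, 23.5 and 17.7 in WT saline mice, 8.8, 9.28, 10.6, 23.1 and 9.8 in WT Ang II mice, 22.2, 17.3, 18.5, 14.6 and 16.5 in Plod1-/- saline mice and 8.45, 9.4, 5.81, 5.87 and 8.74 in Plod1-/- Ang II mice. WT Ang II replicate 4 stood with the saline mice, and without it the WT groups did not overlap. The log2 fold change was -1.13 (SE 0.15, adjusted p = 0.000315) in Plod1-/- mice and -0.78 (SE 0.22, adjusted p = 0.0214) in WT mice. Without WT Ang II replicate 4 the WT value was -1.02 (adjusted p = 6.41e-05), and without WT Ang II replicates 2 or 5 it was -0.71 (adjusted p = 0.057) or -0.73 (adjusted p = 0.0553). The interaction was -0.35, with a 95% confidence interval from -0.95 to 0.25 (adjusted p = 0.346). Between the Ang II groups Nr1d2 was at -0.55 in Plod1-/- mice (limma adjusted p = 0.113, exact permutation p = 0.0317).

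Dbp, a PAR bZIP factor that carries the rhythm from E-boxes to downstream genes, had the largest ratio of highest to lowest FPKM of the 10 genes over the 20 mice, 25.1 (ENSMUSG00000059824, chr7:45705088-45710203, plus strand). Its FPKM was 30.1, 40.5, 56.1, 59.4 and 34.2 in WT saline mice, 17.8, 52.4, 38.7, 53.3 and 46.7 in WT Ang II mice, and 99.6, 79.2, 98.3, 42.8 and 71 in Plod1-/- saline mice. It was 12.3, 9.15, 6.82, 3.97 and 7.37 in Plod1-/- Ang II mice, and no mouse of another group was that low. In Plod1-/- mice Dbp was 9.85-fold lower under Ang II by the group means, with a log2 fold change of -3.16 (SE 0.29, 95% confidence interval from -3.80 to -2.53, adjusted p = 4.19e-05), and stood at rank 120 of 12333 genes by p-value. In WT mice the response was -0.12 (SE 0.30, 95% confidence interval from -0.77 to 0.53, adjusted p = 0.757). The responses differed by -3.04 (SE 0.44, adjusted p = 9.36e-05). In Plod1-/- against WT mice under Ang II Dbp was 5.28-fold lower in Plod1-/- mice, with a log2 fold change of -2.24 (SE 0.33, adjusted p = 0.00183). Under saline it was at 0.80 in Plod1-/- against WT mice (SE 0.25, adjusted p = 0.077), with 4 of 5 Plod1-/- mice above every WT mouse. Without both Xist libraries the Plod1-/- response was -3.34 (adjusted p = 7.88e-05). Dbp shares 737 bases with Sphk2 on the opposite strand, which ran from 9.36 to 16.4 FPKM.

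Tef, another PAR bZIP factor, fell in Plod1-/- mice as Dbp did (ENSMUSG00000022389, chr15:81802421-81826863, plus strand). Its FPKM was 20.6, 28.5, 55.6, 43 and 44.7 in WT saline mice, 17.6, 25.7, 26.3, 33.1 and 19.6 in WT Ang II mice, 57.4, 44.6, 44.7, 26.7 and 35.8 in Plod1-/- saline mice and 15, 22.9, 7.39, 9.67 and 13.1 in Plod1-/- Ang II mice. Only within the Plod1-/- genotype were the Ang II and saline values apart. The log2 fold change there was -1.60 (SE 0.28, adjusted p = 0.00123), in WT mice -0.59 (SE 0.26, adjusted p = 0.0887), and the interaction was -1.01 (95% confidence interval from -1.86 to -0.17, adjusted p = 0.0532). The interaction passed in 6 of 20 fits without 1 mouse (WT saline replicates 3 and 5, WT Ang II replicate 1, Plod1-/- saline replicate 4 and Plod1-/- Ang II replicates 1 and 2), with adjusted p-values from 0.0176. The WT response passed without WT saline replicate 1 (-0.78, adjusted p = 0.0254) or WT Ang II replicate 4 (-0.70, adjusted p = 0.0432). Between the Ang II groups Tef was at -0.86 (SE 0.27, adjusted p = 0.0344), a call lost in 7 of 10 fits without 1 mouse (WT Ang II replicates 2, 3, 4 and 5 and Plod1-/- Ang II replicates 3, 4 and 5), with adjusted p-values up to 0.0859. An upstream window of Tef is shown because it holds an E-box, 127 bases before the start, in a gene that fell with Dbp (chr15:81802423-81802672, plus strand, inside the GENCODE gene model), and a second window of Tef has one 138 bases before its start. The window of Dbp held none of the motifs, and Per2 has no entry in the table used. Over all windows, 7.15% held CACGTG, 6.02% in the 250 upstream bases, and 3 of the 9 clock genes with a window did.
Tef upstream: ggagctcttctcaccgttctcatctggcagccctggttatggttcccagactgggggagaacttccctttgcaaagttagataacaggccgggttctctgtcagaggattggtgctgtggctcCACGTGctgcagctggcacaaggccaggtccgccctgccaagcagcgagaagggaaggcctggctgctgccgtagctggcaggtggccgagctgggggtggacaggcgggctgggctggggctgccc

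**Figure D2:**
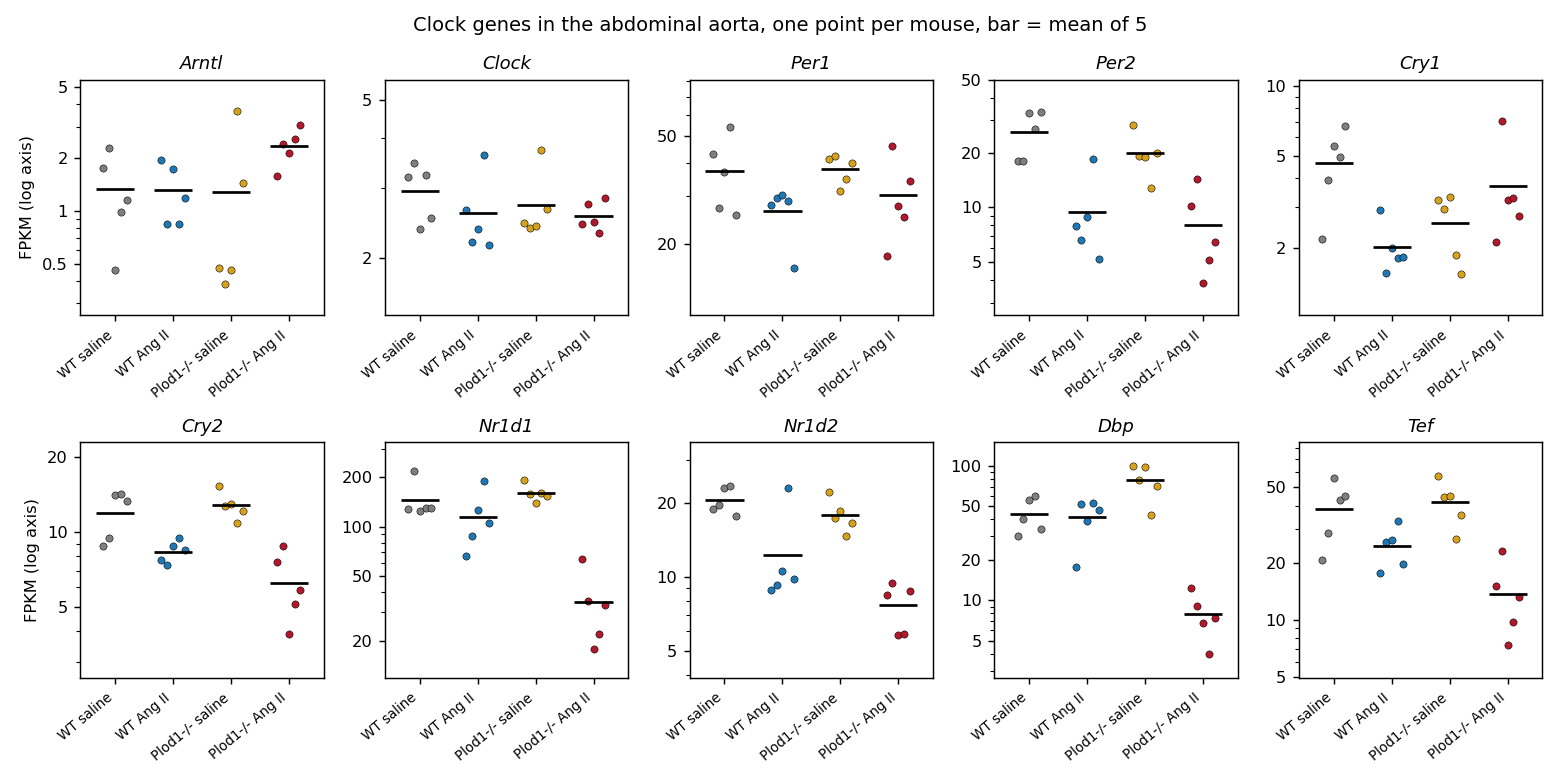
FPKM of the 10 clock genes (y axes, log scale) in each of the 20 mice by group, 1 point per mouse, with a bar at the mean of 5. The Plod1-/- Ang II mice lie below all other mice for Nr1d1 and Dbp, at no more than 63.8 and 12.3 FPKM, while Clock stays between 2.15 and 3.75 FPKM in all groups.

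Set side by side in the Plod1-/- response, the 6 genes that fell had log2 fold changes from -0.96 (Cry2) to -3.16 (Dbp), while Per1 and Cry1, which the ARNTL-CLOCK pair also activates, were at -0.37 and 0.34 and did not pass. Groups did not overlap for 5 of the 10 in the Plod1-/- response (Cry2, Nr1d1, Nr1d2, Dbp and Tef lower, beside 15.0% of all genes lower without overlap) and for 2 between the Ang II groups (Nr1d1 and Dbp, beside 4.62%). Any 5 mice against 5 without overlap give an exact permutation p-value of 0.00794, the smallest possible, so that value adds nothing here.

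Arntl and Dbp peak at opposite times of the day, so their balance sets mice side by side along the cycle, as a description. The log2 ratio of Arntl to Dbp, with 1 added to each FPKM, had a lowest, median and highest value of -5.28, -4.03 and -3.50 in WT saline mice, -4.88, -4.45 and -2.68 in WT Ang II mice and -6.09, -5.86 and -3.23 in Plod1-/- saline mice. In Plod1-/- Ang II mice it was -2.37, -1.33 and -0.48, above every other mouse. In plain FPKM, Dbp exceeded Arntl 17.2-fold to 120-fold in WT saline mice, 9.17-fold to 63.6-fold in WT Ang II mice, 11.6-fold to 211-fold in Plod1-/- saline mice and 1.55-fold to 7.84-fold in Plod1-/- Ang II mice. The group means of the log2 ratio differed by 0.13 between Ang II and saline in WT mice, by 3.86 between Ang II and saline in Plod1-/- mice and by 2.78 between the Ang II groups, and the Plod1-/- saline mean was 0.95 below that of WT saline mice (-5.23 and -4.28). No test was made on this ratio, which is a score over chosen genes.

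Mice of 1 group also stood apart from each other. Among Plod1-/- saline mice, replicate 4 had the highest Arntl (3.68 FPKM), Clock, Npas2 and Nfil3 and the lowest Dbp (42.8 FPKM), Tef, Per2, Nr1d2, Ciart and Hlf. Replicates 1, 2 and 3 of that group had Arntl at 0.476 FPKM or below and Dbp at 79.2 FPKM or above. Among WT saline mice, replicate 3 had the lowest Arntl (0.466 FPKM), Clock, Npas2 and Nfil3 and the highest Tef, Per3 and Hlf. WT Ang II replicate 1 had the highest Arntl (1.94 FPKM) and Nfil3 and the lowest Dbp (17.8 FPKM), Tef, Nr1d1 and Nr1d2 of its group. The clock genes varied more within groups than most genes: for 9 of the 10, all but Clock, the within-group SD of 0.27 to 0.54 on the log2 scale was above the median of 0.25 over 13263 genes.

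**Figure D3:**
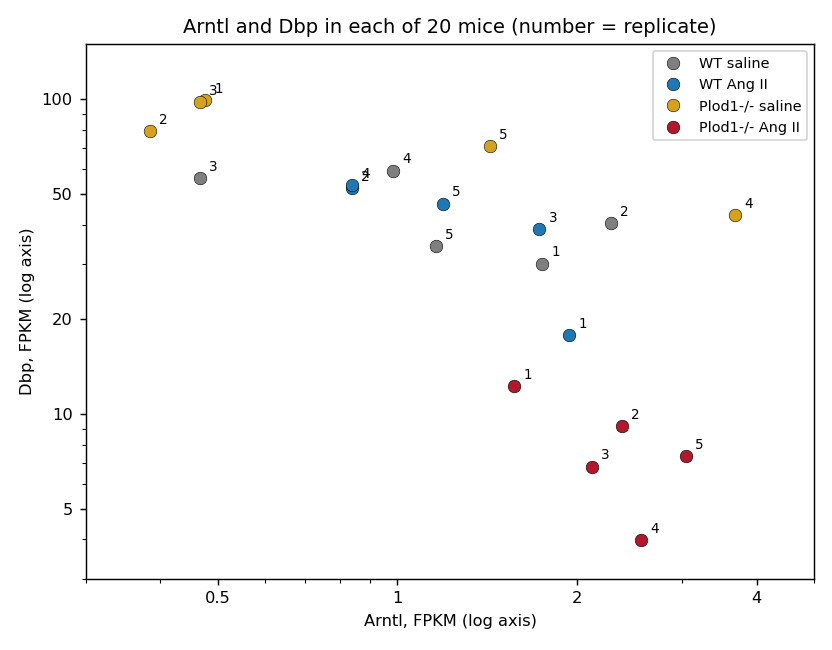
Arntl (x axis) against Dbp (y axis), both in FPKM on log axes, for the 20 mice, coloured by group and numbered by replicate. Across mice, with group means subtracted, r was -0.71, and the 5 Plod1-/- Ang II mice lie at no more than 12.3 FPKM of Dbp at Arntl values that mice of other groups also reach.

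After the mean of each group was subtracted, Arntl was negatively correlated across mice with 4 of the 8 genes it activates, Dbp, Tef, Per2 and Cry2, and the relations with the other 4 did not pass. Over 20 mice, the correlation of Arntl with Dbp was r = -0.71 (permutation within groups, p = 0.00034, adjusted over the 9 relations 0.00306) and rho = -0.72 (permutation p = 0.00059, adjusted 0.00531), and r was -0.70 without the 2 mice farthest from the median of Arntl. With Tef it was r = -0.61 (permutation p = 0.00339, adjusted 0.0153) and rho = -0.67 (permutation p = 0.00224, adjusted 0.0101), with -0.54 left. With Cry2 it was r = -0.46 (permutation p = 0.0188, adjusted 0.0382) and rho = -0.54 (permutation p = 0.0174, adjusted 0.0393), with -0.37 left, and with Per2 r = -0.46 (permutation p = 0.0212, adjusted 0.0382) and rho = -0.50 (permutation p = 0.0268, adjusted 0.0483), with -0.33 left. With Clock it was r = 0.59 (permutation p = 0.0209, adjusted 0.0382) and rho = 0.57 (permutation p = 0.0172, adjusted 0.0393), but r was 0.31 without those 2 mice. The relations with Clock, Cry2 and Per2 thus rest in part on those mice. Nr1d2 at r = -0.40, Cry1 at -0.30, Nr1d1 at -0.07 and Per1 at -0.02 did not pass, with adjusted permutation p-values from 0.0517 to 0.931. Of the 5 relations that passed, 2 did without both Xist libraries, those with Dbp (r = -0.70, adjusted permutation p = 0.0286) and Tef (r = -0.60, adjusted permutation p = 0.0369, and rho = -0.58, adjusted 0.0623). Groups of 5 were too small for a correlation within each.

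Further clock factors were counted from a list of 12, of which 11 could be tested, 10 under saline. In Plod1-/- mice under Ang II, 2 were higher (Nfil3 and Bhlhe40) and 5 lower (Per3, Rora, Bhlhe41, Ciart and Hlf), where 23.8% of all genes were higher and 20.1% lower. In WT mice 2 were lower (Rora and Ciart), beside 21.5% of all genes. In Plod1-/- against WT mice under Ang II 2 were higher in Plod1-/- mice (Nfil3 and Bhlhe40) and 1 lower (Hlf), beside 20.8% and 10.4% of all genes, and under saline 1 was higher (Bhlhe41), where 6.55% of all genes passed in either direction. The median log2 fold change of the list was -0.26 in the Plod1-/- response (0.05 over all genes), -0.20 in the WT response (-0.14), -0.14 between the Ang II groups (0.12) and 0.02 under saline (-0.01).

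Nfil3 encodes a repressor that competes with DBP and TEF for D-boxes and peaks opposite to them. Its FPKM was 44.8, 24.8, 6.3, 9.73 and 12.3 in WT saline mice, 30.5, 11.1, 11.7, 10.4 and 7.57 in WT Ang II mice, 3.62, 5.14, 4.74, 13.8 and 4.88 in Plod1-/- saline mice and 20.6, 34.4, 35.8, 27.3 and 27 in Plod1-/- Ang II mice. The Plod1-/- groups did not overlap, and WT saline mice spread across nearly the whole range. On the log2 scale the difference was 2.12 (SE 0.29, adjusted p = 0.000302) in Plod1-/- mice and -0.28 (SE 0.48, adjusted p = 0.659) in WT mice, with an interaction of 2.40 (SE 0.60, adjusted p = 0.00518). Between the Ang II groups it was 1.11 (adjusted p = 0.021), with adjusted p-values of 0.0512 to 0.054 without WT Ang II replicates 2, 3 or 5 or Plod1-/- Ang II replicate 3.

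Hlf, the third PAR bZIP factor, ran from 2.91 to 7.52 FPKM in WT saline mice, from 1.28 to 5.45 in WT Ang II mice, from 2.05 to 9.24 in Plod1-/- saline mice and from 0.457 to 2.04 in Plod1-/- Ang II mice. Its log2 fold change was -1.60 (SE 0.32, adjusted p = 0.00275) in Plod1-/- mice and -0.58 (SE 0.28, adjusted p = 0.116) in WT mice, or -0.77 (adjusted p = 0.024) without WT Ang II replicate 4. In Plod1-/- against WT mice under Ang II it was -0.98 (adjusted p = 0.0242), a call lost in 5 of 10 fits without 1 mouse (WT Ang II replicates 2 and 3 and Plod1-/- Ang II replicates 3, 4 and 5), with adjusted p-values up to 0.0621. The 3 PAR bZIP genes thus all passed with lower expression in the Plod1-/- response.

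Ciart, a repressor of the ARNTL-CLOCK pair, was at 14.5, 13.1, 24.3, 23.2 and 11.1 FPKM in WT saline mice, 4.01, 9.84, 8.51, 13.7 and 5.6 in WT Ang II mice, 38.7, 23.9, 26.1, 9.8 and 14.2 in Plod1-/- saline mice and 8.23, 4.74, 2.35, 1.32 and 1.82 in Plod1-/- Ang II mice. It fell in both genotypes, without overlap in Plod1-/- mice. Ciart was at -2.38 on the log2 scale (SE 0.43, adjusted p = 0.00149) in Plod1-/- mice and was 2.07-fold lower by the group means in WT mice (adjusted p = 0.024), where WT saline replicates 3 and 4 and WT Ang II replicate 5 each decided the call (adjusted p = 0.0547, 0.0571 and 0.0625 without them). The interaction was -1.37 (adjusted p = 0.0576) and passed in 5 of 20 fits without 1 mouse (WT saline replicate 3, WT Ang II replicate 1, Plod1-/- saline replicate 4 and Plod1-/- Ang II replicates 1 and 2), with adjusted p-values from 0.0148. Per3, the third Period gene, had group medians of 4.45 and 2.67 FPKM in WT mice under saline and Ang II and 5.3 and 1.37 FPKM in Plod1-/- mice under saline and Ang II. Its log2 fold change was -1.16 (SE 0.25, adjusted p = 0.00418) in Plod1-/- mice and -0.49 (SE 0.27, adjusted p = 0.167) in WT mice. Per3 lies within the span of Camta1 on the same strand.

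The windows of both genes carry motifs of the loop and are shown for that. Ciart has 3 E-boxes, 116, 58 and 44 bases before the start (chr3:95882229-95882478, minus strand), and was the only gene of either list with more than 1 E-box in a window. Per3 has 2 D-boxes (TTATGTAA, searched with TTACGTAA on both strands), the site of DBP, TEF, HLF and NFIL3, 205 and 158 bases before the start (chr4:151044666-151044915, minus strand). D-boxes of these letters were in 1.06% of all windows, in none of the 9 clock genes and in 1 of 10 further factors with a window. The cAMP element TGACGTCA was in 1.79% of windows, among these genes only in that of Hlf, 9 bases before the start.
Ciart upstream: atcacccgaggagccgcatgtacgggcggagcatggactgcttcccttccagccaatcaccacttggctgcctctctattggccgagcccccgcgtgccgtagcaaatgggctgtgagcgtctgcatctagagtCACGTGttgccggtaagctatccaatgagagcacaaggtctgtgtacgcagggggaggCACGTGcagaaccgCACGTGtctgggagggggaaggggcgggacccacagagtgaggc
Per3 upstream: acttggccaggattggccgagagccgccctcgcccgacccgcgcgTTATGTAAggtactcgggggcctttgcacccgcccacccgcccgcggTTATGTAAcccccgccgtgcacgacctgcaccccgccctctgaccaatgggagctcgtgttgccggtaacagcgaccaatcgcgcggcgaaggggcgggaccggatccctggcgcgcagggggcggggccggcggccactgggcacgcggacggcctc

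Bhlhe40 and Bhlhe41 encode DEC1 and DEC2, repressors that occupy E-boxes, and they moved apart. Bhlhe41 was at 1.91 to 4.38 FPKM in WT saline mice, 1.43 to 4.6 in WT Ang II mice, 5.1 to 8.06 in Plod1-/- saline mice and 1.85 to 2.93 in Plod1-/- Ang II mice. The Plod1-/- saline mice were above every other mouse. Its log2 fold change was -1.15 (SE 0.14, adjusted p = 0.000155) in Plod1-/- mice and -0.18 (SE 0.22, adjusted p = 0.525) in WT mice, the interaction was -0.97 (adjusted p = 0.0097), and under saline it was 0.76 higher in Plod1-/- mice (adjusted p = 0.0292). The saline call was lost in 5 of 10 fits without 1 mouse (WT saline replicates 2 and 4 and Plod1-/- saline replicates 2, 3 and 4), with adjusted p-values up to 0.0645. Bhlhe40 was 0.68 higher under Ang II in Plod1-/- mice (SE 0.20, adjusted p = 0.0196; 0.0505 and 0.0502 without Plod1-/- saline replicates 4 or 5) and 0.65 higher in Plod1-/- than in WT mice under Ang II (adjusted p = 0.0215, or 0.0558 without Plod1-/- Ang II replicate 4). In WT mice Bhlhe40 was at 0.03.

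Npas2, which can stand in for CLOCK and peaks with Arntl, had similar means of 1.62, 1.83, 1.7 and 1.91 FPKM in WT saline, WT Ang II, Plod1-/- saline and Plod1-/- Ang II mice. It passed in no comparison, and its interaction was 0.07, with a 95% confidence interval from -0.82 to 0.96. Rora, an activator at ROR elements, was at -0.41 (adjusted p = 0.00882) in Plod1-/- mice under Ang II and at -0.45 (adjusted p = 0.0389) in WT mice, where the call held in 1 of 10 fits without 1 mouse, that without WT Ang II replicate 4.

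**Figure D4:**
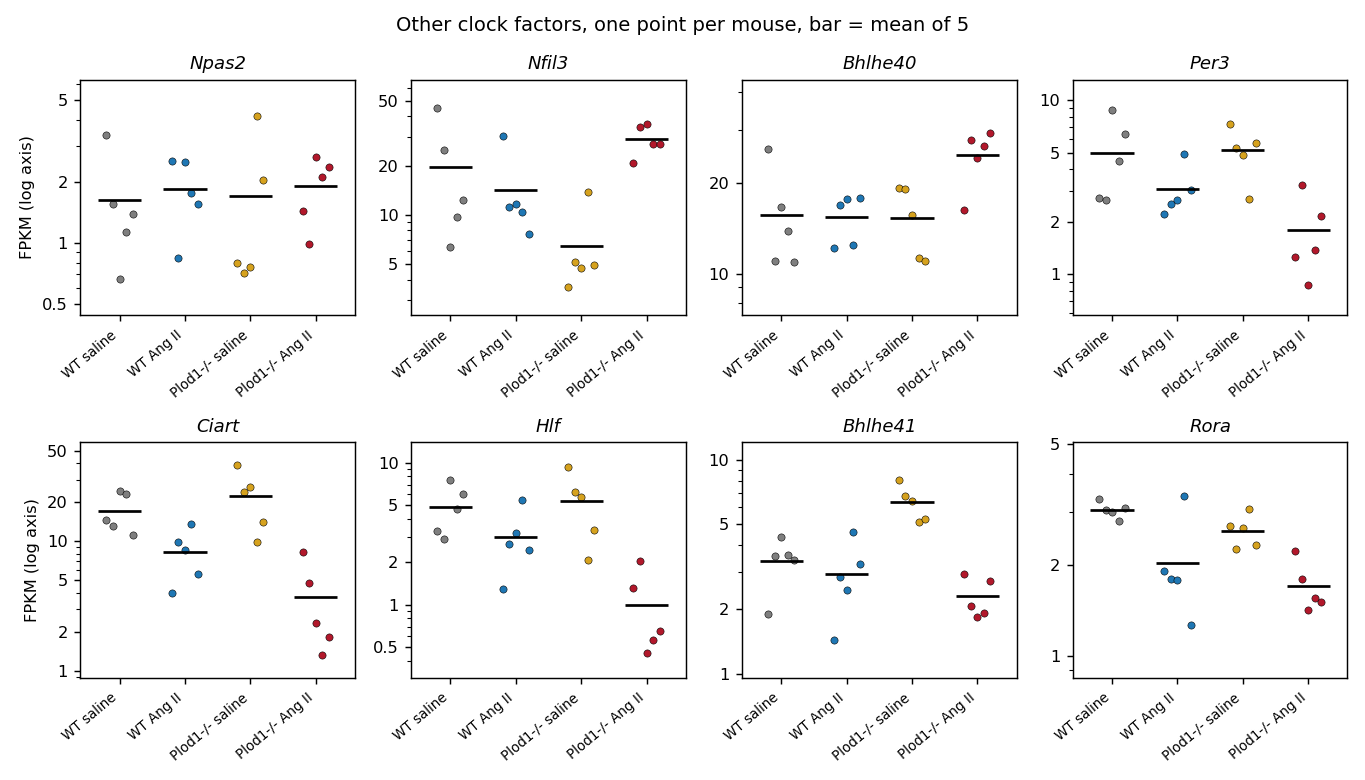
FPKM of 8 further clock factors (y axes, log scale) in each mouse by group, with a bar at the mean of 5. Nfil3 lies between 20.6 and 35.8 FPKM in Plod1-/- Ang II mice and at no more than 13.8 FPKM in Plod1-/- saline mice, while Npas2 overlaps in all groups.

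Csnk1d and Csnk1e, the casein kinases that phosphorylate PER proteins, were lower in WT mice under Ang II, at -0.39 (adjusted p = 0.0301) and -0.47 (adjusted p = 0.0148). Neither passed in the 3 other comparisons of 10 mice. The Csnk1d call was lost without WT saline replicates 1 or 3 or WT Ang II replicates 2, 3 or 5 (adjusted p up to 0.0796). Among 4 genes that often follow the clock, Wee1, a cell cycle kinase, was at -1.20 (adjusted p = 0.00415) in WT and -0.49 (adjusted p = 0.0315) in Plod1-/- mice under Ang II. Its call in Plod1-/- mice was lost in 5 of 10 fits without 1 mouse (Plod1-/- saline replicates 1, 2 and 3 and Plod1-/- Ang II replicates 3 and 4), with adjusted p-values up to 0.0768. Tspan4, a tetraspanin, was 0.75 higher under Ang II in Plod1-/- mice (adjusted p = 0.00922) and 0.90 higher in Plod1-/- than in WT mice under Ang II (adjusted p = 0.0169).

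Genes with the pattern most like Arntl and Dbp were sought among 13253 genes by Pearson r of log2(FPKM + 1) over the 20 mice, which share the 4 groups. For Arntl they were Leo1 (0.83), Psd (0.82), Npas2 (0.79), Ier5 (0.77) and Nfil3 (0.76), and after subtraction of group means Npas2 (0.84), Leo1 (0.79), Psd (0.74), Gm10382 (0.74) and Nfil3 (0.73). For Dbp they were Smim5 (0.97), Tcap (0.97), Ephx1 (0.93), Retnla (0.93) and Tceal6 (0.93), and after subtraction Ciart (0.86), Tcap (0.84), Bhlhe41 (0.79), Smim5 (0.78) and Retnla (0.76). The clock genes Hlf and Ciart were at the opposite end for Arntl, at -0.80 and -0.75, and Nfil3 was at -0.83 for Dbp.

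Markers of cell types also differed between the groups. In bulk tissue, fewer cells of a type and less RNA per cell cannot be told apart. The summed FPKM of 8 smooth muscle genes, with none at 0 in any mouse, ran from 14151 to 20491 in WT saline mice, from 5532 to 17074 in WT Ang II mice, from 15081 to 20757 in Plod1-/- saline mice and from 2327 to 16992 in Plod1-/- Ang II mice. WT Ang II replicate 4 held the 17074, and the other mice of its group ran from 5532 to 10513. That mouse also had the highest Per2, Nr1d1, Nr1d2, Tef and Hlf of its group. The list had 6 of 8 genes lower in the WT response and 7 of 8 in the Plod1-/- response, beside 21.5% and 20.1% of all genes. Between the Ang II groups 2 of 8 were lower in Plod1-/- mice, beside 10.4% of all genes. Over 7 macrophage genes, none at 0, the sums ran from 128 to 246, from 200 to 1296, from 57.3 to 209 and from 636 to 3705 in the same order of groups. All 7 were higher in the Plod1-/- response and, in Plod1-/- mice, between the Ang II groups, beside 23.8% and 20.8% of all genes. The smooth muscle sum is mostly Acta2, which reached 14456 FPKM in Plod1-/- Ang II replicate 1, a library with Xist. That mouse held the sum of 16992, beside 2327 to 6205 in the other mice of its group. Its macrophage sum was 636, beside 1789 to 3705 in the others. It also had the highest Dbp and Nr1d1 and the lowest Arntl of its group. In that group Myh11 reached 801, Smtn 208, Lmod1 149 and Myocd 1.72 FPKM. These lay below the lowest Plod1-/- saline values of 1087, 369, 353 and 2.12 FPKM. The other genes of the list overlapped: Cnn1, Tagln and Des reached 1135, 12.2 and 230 FPKM, above the highest Plod1-/- saline values of 1037, 9.72 and 88.9 FPKM. Their medians in Plod1-/- Ang II mice, 213, 2.11 and 29 FPKM, lay below the lowest Plod1-/- saline values of 757, 5.79 and 36.1 FPKM. The part of these cells in the clock gene differences was not tested.

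Markers of fat, blood and other cell types were counted too. Of all genes, 16.5% were higher and 21.5% lower in the WT response, and 23.8% higher and 20.1% lower in the Plod1-/- response. Of 6 brown adipocyte genes, 5 were higher in the WT response, with sums of 605 to 4828 in WT Ang II mice beside 28.2 to 436 in WT saline, 26.3 to 1391 in Plod1-/- saline and 165 to 607 in Plod1-/- Ang II mice. WT Ang II replicate 4 held the 605, with 2559 to 4828 in the other mice of its group. Between the Ang II groups 5 of these 6 genes were lower in Plod1-/- mice, beside 10.4% of all genes. Elovl3 of that list was at 0 in 1 WT saline mouse. Of white adipocyte genes, 5 of 5 tested were higher in the WT response and 3 of 6 in the Plod1-/- response, and of 3 red blood cell genes all 3 were higher in the Plod1-/- response. Of 5 neutrophil genes, 2 could be tested in the Plod1-/- response and both were higher, and Ly6g was at 0 in 11 mice. Endothelial genes were higher for 2 of 5 and lower for 1 in the WT response, fibroblast genes higher for 1 of 4 in the Plod1-/- response, and skeletal muscle genes higher for 2 of 3 tested in the WT response, with Myh1 at 0 in 2 mice. The part of these tissues in the clock gene differences was not tested.

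Inputs to the clock were counted in the same way. Signals and handling induce immediate early genes within minutes, and their pathway also reaches Per1 and Per2. Of 14 such genes, 11 were lower in the WT response (beside 21.5% of all genes) and 5 higher in the Plod1-/- response (beside 23.8%). All 14 were higher in Plod1-/- than in WT mice under Ang II (beside 20.8%). Their summed FPKM ran from 732 to 3419 in WT saline mice, from 198 to 380 in WT Ang II mice, from 353 to 1756 in Plod1-/- saline mice and from 878 to 2055 in Plod1-/- Ang II mice. Between the Ang II groups the log2 fold changes of Per2 and Per1 were -0.21 and 0.15 (adjusted p = 0.675 and 0.666). Of 6 glucocorticoid targets tested, 3 were lower in the WT response, beside 21.5% of all genes. In the Plod1-/- response 1 was higher and 1 lower, near the shares of all genes, 23.8% and 20.1%. The sums of that list ran from 802 to 2704, from 258 to 1770, from 540 to 785 and from 522 to 1480 FPKM in the same order of groups. They are mostly Mt1, with group means of 1110, 509, 472 and 853 FPKM, so they say little of the other targets. The part of these inputs in the clock gene differences was not tested.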

How the data were processed

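Abdominal aortas of 20 mice, 5 per group, were profiled by RNA sequencing with the Illumina TruSeq RNA kit V2, which does not mark strand. The deposited values are FPKM per gene and library, which the authors computed with HISAT2, stringtie, cuffquant and cuffnorm at default settings. The submitters' processing notes name mm10, HISAT2 2.1.0, Bowtie2 2.2.3 and HTSeq 0.6.0, without roles. FPKM keeps no counts, so no count test was run, and cuffnorm scaling makes values relative to the rest of a library.

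Ensembl identifiers were named from GENCODE vM21 (43226 of 43422 genes). log2(FPKM + 1) was fitted with limma 3.58.1 (R 4.3.3), with a variance trend, in the 10 mice of each pairwise comparison and in all 20 for the interaction and the test among 4 groups. A gene entered a fit when 5 or more of its mice reached an FPKM of 1, and p-values were adjusted by Benjamini-Hochberg over all genes tested. Exact permutation tests, two-sided, were made per gene (smallest possible p = 0.00794). Relations used group-centred values and 100000 permutations within groups. The fits were tested on simulated data. Python 3.11.15, pandas 2.3.3, NumPy 2.4.6 and matplotlib 3.10.9 were used for the rest.

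The 10 genes, the lists and the tests were chosen with earlier results of these data known. All 10 were named in every comparison, genes of the 3 further clock lists were counted and named where they passed a pairwise comparison or were Per3, Npas2, Ciart, Hlf, Nfil3, Bhlhe40 or Bhlhe41, and the 5 genes most like Arntl and Dbp were named. Some genes of these lists are not reported here. Motifs were searched in RefSeq promoter windows (GRCm38.p6). Alternatives were a pseudocount of 0.1, no filter, quantile normalization, sums without mitochondrial genes, weights per mouse, no variance trend, a replicate block, 1 fit of all 4 groups, the DEG rule, and leaving out each mouse or both Xist libraries.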

Additional observations from a re-analysis of the deposited data

Results flagged for a closer look

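The response to Ang II differed between the genotypes, by the interaction term over 20 mice, for Cry1 (1.20 on the log2 scale, adjusted p = 0.0118 by limma), Nr1d1 (-1.92, adjusted p = 0.00165) and Dbp (-3.04, adjusted p = 9.36e-05) among the 10 clock genes. Among the 21 further genes of the pathway lists it differed for Bhlhe41 (-0.97, adjusted p = 0.0097), Nfil3 (2.40, adjusted p = 0.00518), Tspan4 (1.26, adjusted p = 0.00606), Csnk1d (0.42, adjusted p = 0.0374) and Csnk1e (0.40, adjusted p = 0.0375). The interactions of Csnk1d and Csnk1e were lost with quantile normalization (0.32, adjusted p = 0.0807, and 0.26, adjusted p = 0.164) and in 9 and 12 of 20 fits without 1 mouse, with adjusted p-values up to 0.0725 and 0.0749. A positive value means a higher response in Plod1-/- mice, and 37.8% of all genes passed this test.

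In 5 of 68 groups of 5 mice examined over 17 clock genes, 1 mouse lay far from the other 4 by Dixon's criterion, where chance gives about 1 in 20, or 3.4. Nr1d1 was at 218 FPKM in WT saline replicate 2, beside 125 to 130 in the others of its group. Nr1d2 was at 23.1 FPKM in WT Ang II replicate 4, beside 8.8 to 10.6. Per1 was at 16.4 FPKM in WT Ang II replicate 5, beside 27.8 to 30.3. In Plod1-/- saline replicate 4, Clock was at 3.75 FPKM, beside 2.38 to 2.65, and Nfil3 at 13.8 FPKM, beside 3.62 to 5.14.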

How the results depend on the processing

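Counts of clock genes that passed are given as reported and then under the alternatives. In the WT response, 4 became 2 with no filter on low values, 1 by the DEG rule, 3 without mitochondrial genes and 5 with the replicate block or weights per mouse, and ranged from 2 to 6 without 1 mouse. In the Plod1-/- response, 6 became 5 by the DEG rule and 7 in 1 fit of all 4 groups, and ranged from 6 to 7 without 1 mouse. Between the Ang II-treated groups, 4 became 2 with no filter, 2 with the replicate block, 2 by the DEG rule, 3 without mitochondrial genes, 5 without both Xist libraries and 7 with weights per mouse, and ranged from 2 to 5 without 1 mouse. Under saline, 0 became 1 with weights per mouse and was 0 to 1 without 1 mouse. The interaction count of 3 became 5 with quantile normalization, 5 with weights per mouse and 4 without mitochondrial genes, and ranged from 3 to 5 without 1 mouse. The test among 4 groups gave 7, 6 with no filter, 8 with weights per mouse and 6 to 8 without 1 mouse. The other limma settings left these counts as reported, but not always the same genes. Between the Ang II groups, quantile normalization lost Arntl (limma adjusted p = 0.0582) and gained Cry2 (adjusted p = 0.0469). There, 1 fit of all 4 groups lost Arntl (adjusted p = 0.126) and gained Nr1d2 (adjusted p = 0.0328). The 5 relations with Arntl became 2 without both Xist libraries. No result changed its direction once called, and of 3851 values of single genes under the alternatives, 3582 kept their side of the threshold, 102 gained a call and 167 lost one. The cause of these moves was not tested.

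Replicate numbers are shared by the 4 groups but do not pair the mice: over 30 pairs with the same number, deviations from the group means correlated from -0.332 to 0.452 (median -0.0682, 8 above 0.1). Absolute depth is unknown, which limits what can be said of Arntl, Clock and Npas2 at a few FPKM.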
